A study of Arabidopsis thaliana with 14 samples.

Results

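The brassinosteroid (BR) receptor and signalling genes described here are BRI1 (AT4G39400), BRL1 (AT1G55610), BRL3 (AT3G13380), BAK1 (AT4G33430), BKI1 (AT5G42750), BSK1 (AT4G35230), BSU1 (AT1G03445) and BIN2 (AT4G18710). They were chosen by gene identifier, 8 of the 24350 genes in the RNA-Seq tables. The experiment asked how NADPH oxidase inhibition and H2O2 change gene expression in seedlings whose BR response is switched on by a mutant transcription factor. It used 14 samples of Arabidopsis thaliana (ecotype Columbia) in 5 groups, and all groups were grown for 6 days in the dark on medium with 2 µM propiconazole (PPZ), an inhibitor of BR biosynthesis. The bzr1-1D groups carry a dominant gain-of-function allele of BZR1 and were grown with PPZ, 1 µM diphenylene iodonium (DPI) and 0.3 mM H2O2 (2 samples), with PPZ and DPI (3 samples), or with PPZ alone, called mock (3 samples). The wild-type Col-0 groups were grown with PPZ and DPI (3 samples) or as mock with PPZ alone (3 samples). None of the 14 samples is Col-0 with H2O2. DPI blocks NADPH oxidases and other flavin enzymes, and PPZ lowers the hormone itself in every group, controls included.

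BRs are steroid hormones that drive cell elongation in seedlings grown in darkness. At the plasma membrane the hormone binds BRI1, which then frees itself of the inhibitor BKI1 and pairs with the co-receptor BAK1. The signal passes through BSK kinases to the phosphatase BSU1, which switches off the GSK3-like kinase BIN2. BIN2 otherwise phosphorylates BZR1 and keeps it out of the nucleus. The bzr1-1D protein escapes this control, so in bzr1-1D the output of the pathway is active while the genes described here lie upstream of the mutation.

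The values are the authors' group means of expression, taken here as FPKM (fragments counted per gene, scaled for transcript length and for the size of the library), with 1 mean per group. No SD, n per value or test across replicates can be given, the depth of each sample is unknown, and every difference below is a difference between means that was not tested against the spread between samples. In bzr1-1D mock every mean has decimals that an average of 2 libraries gives, although the labels list 3 samples, and the tables do not say which 2 were used. A log2 ratio here is that of the 2 means after adding 0.1 FPKM to each, and a gene counts as past the fold when it differed by at least 1.5-fold (0.58 on the log2 scale) and the average of the 2 means was at least 1 FPKM. The median gene itself moved, by a log2 ratio of 0.14 for bzr1-1D against Col-0 in mock, 0.19 for the same comparison under DPI, -0.23 for DPI against mock in bzr1-1D, -0.28 for DPI against mock in Col-0, 0.28 for DPI plus H2O2 against DPI and 0.04 for DPI plus H2O2 against mock. A value relative to the median gene is the log2 ratio minus this shift. The labels give the tissue as hypocotyl, but of 10 marker genes of other organs 6 or 7 stood at 1 FPKM or more in each group. The lowest value the tables hold is 0.01 FPKM, and the lowest marker value was 0.02 FPKM, for the root nitrate transporter gene NRT2.1 in Col-0 mock. NRT2.1 had 7.18, 20.6 and 0.495 FPKM in bzr1-1D with DPI plus H2O2, DPI and mock, and 0.46 FPKM in Col-0 DPI. The root cap genes SMB and BRN1 were below 1 FPKM in every group, at 0.25 to 0.72 and 0.12 to 0.82 FPKM. The endodermis gene CASP1, known from roots, ranged from 28.5 to 144.6 FPKM, the shoot meristem gene STM from 6.64 to 10.8 FPKM and the leaf and cotyledon gene RBCS1A from 3725 to 12014 FPKM. The markers summed to 4183 FPKM in bzr1-1D with DPI plus H2O2, 7568 FPKM in bzr1-1D with DPI, 4057 FPKM in bzr1-1D mock, 12068 FPKM in Col-0 DPI and 8812 FPKM in Col-0 mock, most of it RBCS1A. Without RBCS1A the sums were 387.7, 311.2 and 331.6 FPKM in bzr1-1D with DPI plus H2O2, DPI and mock, and 53.7 and 153.9 FPKM in Col-0 DPI and mock, differing both by genotype and, within Col-0, by DPI. Most of this rest was CASP1 and the seed storage gene CRU3, which had 196.8 FPKM in bzr1-1D with DPI, against 8.85 FPKM in Col-0 DPI. The root hair gene EXPA7 went the other way, with 0.18 FPKM in bzr1-1D with DPI, against 3.68 FPKM in Col-0 DPI, as did RBCS1A. The part of these markers in the results was not tested. In such samples fewer cells of a type and less RNA per cell cannot be told apart.

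The 4 members that passed the fold in any comparison were BSK1, BRL1, BRL3 and BAK1. Upstream sequences of BRL1, BRL3 and BAK1 are shown because BZR1 is a DNA-binding protein known to recognise the BR response element (BRRE), written CGTGTG or CGTGCG. Each run is the 250 bases before the annotated gene start in the RefSeq annotation of TAIR10.1, with matches in capitals, from BRL1 (chr1:20784018-20784267, minus strand), BRL3 (chr3:4346080-4346329, plus strand) and BAK1 (chr4:16090833-16091082, minus strand).
BRL1: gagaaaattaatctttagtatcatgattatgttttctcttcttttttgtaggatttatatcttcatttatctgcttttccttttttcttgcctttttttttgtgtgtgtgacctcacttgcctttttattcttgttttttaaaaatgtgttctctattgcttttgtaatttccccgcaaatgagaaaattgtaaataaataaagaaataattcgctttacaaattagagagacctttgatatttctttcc
BRL3: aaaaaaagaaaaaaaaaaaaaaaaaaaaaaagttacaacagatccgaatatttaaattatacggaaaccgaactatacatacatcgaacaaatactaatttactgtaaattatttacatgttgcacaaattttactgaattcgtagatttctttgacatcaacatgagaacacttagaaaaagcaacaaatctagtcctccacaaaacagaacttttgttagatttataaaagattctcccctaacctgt
BAK1: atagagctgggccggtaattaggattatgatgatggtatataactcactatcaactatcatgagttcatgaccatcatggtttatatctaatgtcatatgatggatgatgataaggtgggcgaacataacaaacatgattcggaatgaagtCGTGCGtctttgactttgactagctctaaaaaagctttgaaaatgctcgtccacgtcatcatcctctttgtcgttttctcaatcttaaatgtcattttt
Both strands were searched for the BRRE, for the G-box CACGTG and for CATGTG, motifs that can overlap each other. BAK1 held 1 match, CGTGCG, beginning 99 bases before the gene start, and the windows of the other 6 members searched held no match to any of the motifs. Over all 27431 windows of this length before nuclear protein-coding genes, 6.70% held a BRRE, 6.49% a G-box and 11.1% CATGTG. Of the 39 other BR signalling genes listed for comparison, 1 held a BRRE match (BSK3), 1 a G-box and 1 CATGTG. A match is a description of the letters and no match says only that they are not in this window.

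In all 5 groups the members stood in the same order of level. BIN2 was the highest, with 231.2 FPKM in bzr1-1D with DPI plus H2O2, 225.8 FPKM in bzr1-1D with DPI, 275.3 FPKM in bzr1-1D mock, 181.2 FPKM in Col-0 DPI and 233.9 FPKM in Col-0 mock. It was above 98.2% of genes in Col-0 mock. BRI1, BAK1, BSK1 and BKI1 followed, then BRL3 and BRL1 at a few FPKM, and BSU1 last at 0.02 to 0.28 FPKM. The steps between neighbours were not equal. BRL3 and BRL1 stood close together in bzr1-1D mock (2.99 and 2.81 FPKM), as did BSK1 and BKI1 in Col-0 DPI (13.4 and 12.5 FPKM), and whether such neighbours differ beyond the spread between samples is unknown.

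**Figure D1:**
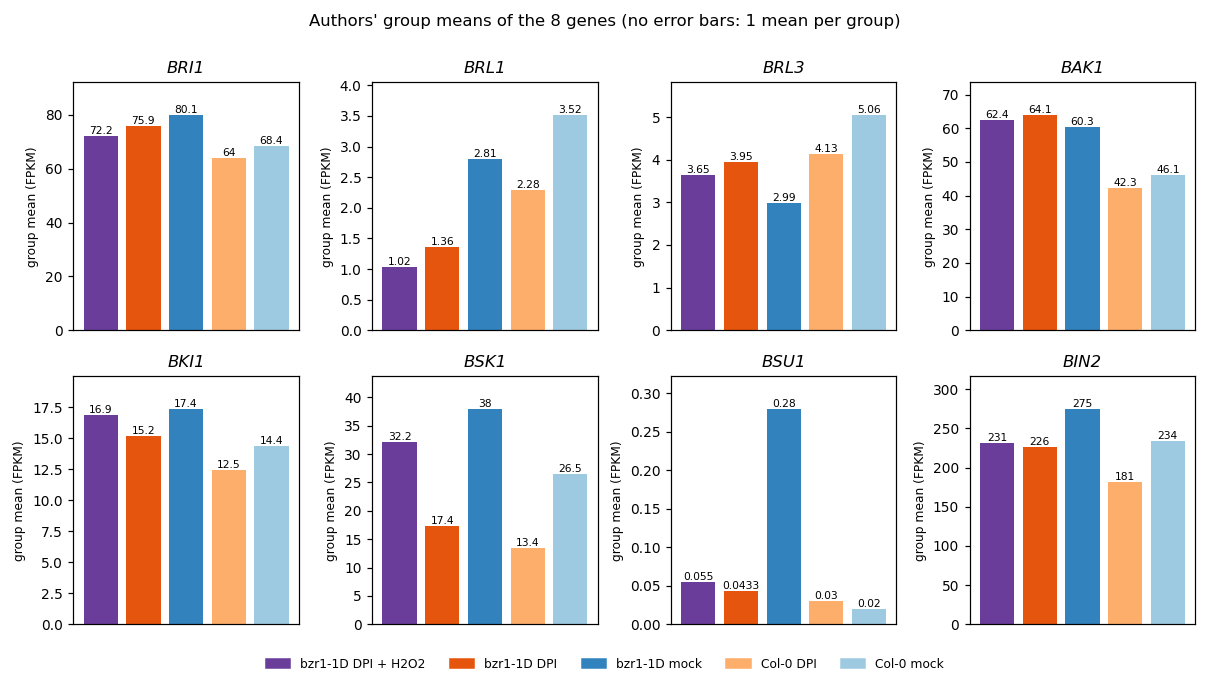
Authors' group means of the 8 genes in FPKM (vertical axis from 0, scaled for each gene), with 1 bar per group and no error bars because 1 mean per group was analysed. BSK1 stands at 17.4 and 13.4 FPKM in the groups with DPI alone and at 26.5 to 38.0 FPKM in the others, whereas the bars of BRI1 lie between 64.0 and 80.1 FPKM.

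Of the receptors, BRI1, the main BR receptor, varied least among the members. It had 72.2, 75.9 and 80.1 FPKM in bzr1-1D with DPI plus H2O2, DPI and mock, and 64.0 and 68.4 FPKM in Col-0 DPI and mock. Its highest mean was 1.25 times its lowest, and all bzr1-1D means were above both Col-0 means. BRI1 (chromosome 4, 18324457 to 18328831, TAIR10 as for all gene positions here) supplied most of the transcript of its gene family. Its share was between 72.3% and 84.5% of the summed FPKM of BRI1, BRL1, BRL2 and BRL3 in the 5 groups. BRL2, not one of the members, was the next highest of these, with 8.63 to 18.6 FPKM. BRI1 was past 1.5-fold in none of the 6 comparisons. Its log2 ratios ran from -0.15 for DPI plus H2O2 against mock in bzr1-1D to 0.25 for bzr1-1D against Col-0 under DPI.

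BRL1 and BRL3 are close relatives of BRI1 that also bind BRs and act mainly in vascular tissue, and their means differed more between groups than that of BRI1. BRL1 (chromosome 1, 20779493 to 20784017) had 1.02, 1.36 and 2.81 FPKM in bzr1-1D with DPI plus H2O2, DPI and mock, against 2.28 and 3.52 FPKM in Col-0 DPI and mock. Every DPI group was below the mock group of its genotype, and the group with added H2O2 was the lowest of all. For DPI against mock the log2 ratio of BRL1 was -0.99 in bzr1-1D and -0.60 in Col-0, both past the fold. Relative to the median gene these were -0.76 and -0.33, so in Col-0 the difference was no longer past 1.5-fold. With a pseudocount of 1 FPKM in place of 0.1 the Col-0 value was -0.46, also under the fold.

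BRL3 (chromosome 3, 4346330 to 4350939) had 3.65, 3.95 and 2.99 FPKM in bzr1-1D with DPI plus H2O2, DPI and mock, and 4.13 and 5.06 FPKM in Col-0 DPI and mock. It was lowest in bzr1-1D mock and highest in Col-0 mock. The log2 ratio of BRL3 for DPI against mock was 0.39 in bzr1-1D and -0.29 in Col-0. The difference between these, 0.68, was the largest of the 7 members that passed the filter and was not tested.

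BAK1, a receptor kinase that BRI1 and several immune receptors share as partner, differed in its group means by genotype more than by treatment. It had 62.4, 64.1 and 60.3 FPKM in bzr1-1D with DPI plus H2O2, DPI and mock, against 42.3 and 46.1 FPKM in Col-0 DPI and mock. The 3 bzr1-1D means lay close together and above both Col-0 means. Relative to the median gene, genotype differences were not clearly the larger. There the log2 ratios for bzr1-1D against Col-0 were 0.24 in mock and 0.41 under DPI. For DPI against mock they were 0.32 in bzr1-1D and 0.15 in Col-0. In bzr1-1D they were -0.32 for H2O2 added to DPI and 0.004 for DPI plus H2O2 against mock. BAK1 (chromosome 4, 16086350 to 16090832) supplied 62.2% to 68.8% of the summed FPKM of the 5 SERK genes, the co-receptor family. The other co-receptor genes had 4.36 to 10.4 FPKM in the 5 groups.

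BKI1, the protein that holds BRI1 inactive at the membrane until the hormone arrives, had 16.9, 15.2 and 17.4 FPKM in bzr1-1D with DPI plus H2O2, DPI and mock, against 12.5 and 14.4 FPKM in Col-0 DPI and mock. Its log2 ratio was 0.27 for bzr1-1D against Col-0 in mock and 0.28 under DPI, and -0.19 and -0.20 for DPI against mock in bzr1-1D and in Col-0. None of these was past the fold, and BKI1 (chromosome 5, 17142816 to 17144672) stayed near the median gene in all of them, at 0.13, 0.09, 0.04 and 0.07 relative to it.

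BSK1, a membrane-anchored kinase that BRI1 phosphorylates and that also serves in immune signalling, had the widest change with treatment among the members above 10 FPKM. It had 32.2, 17.4 and 38.0 FPKM in bzr1-1D with DPI plus H2O2, DPI and mock, against 13.4 and 26.5 FPKM in Col-0 DPI and mock. Both groups with DPI alone were the lowest, and the group with H2O2 added to DPI lay between the mock groups of the 2 genotypes. The mean with DPI was thus 45.7% of mock in bzr1-1D and 50.6% in Col-0, and DPI plus H2O2 stood at 84.6% of mock in bzr1-1D. The median gene was also lower with DPI, and relative to it the log2 ratios of BSK1 were -0.89 in bzr1-1D and -0.70 in Col-0. BSK1 lies on chromosome 4 from 16755092 to 16758358.

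BSU1, the phosphatase that acts on BIN2, was close to the lowest values of the tables. Its means were 0.055, 0.043 and 0.28 FPKM in bzr1-1D with DPI plus H2O2, DPI and mock, and 0.03 and 0.02 FPKM in Col-0 DPI and mock. In Col-0 mock 3.86% of genes were below BSU1. It did not pass the filter in any comparison and no fold is read from it. The related phosphatases BSL1, BSL2 and BSL3 carried nearly all of this family's transcript, and BSL2 alone took between 46.7% and 50.6% of the family sum of 45.3 to 78.4 FPKM.

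For bzr1-1D against Col-0 in mock, 7 of the 8 members passed the filter. None was at least 1.5-fold higher, where 25.5% of all 18346 genes were, and BRL3 was at least 1.5-fold lower, where 15.1% of all genes were. BRL3 had 2.99 FPKM in bzr1-1D, against 5.06 FPKM in Col-0, a log2 ratio of -0.74 (-0.88 relative to the median gene). BSK1, with 38.0 FPKM in bzr1-1D, against 26.5 FPKM in Col-0, came nearest to the fold among the others at a log2 ratio of 0.52. The median log2 ratio of the 7 members was 0.24, against 0.14 over all genes. BRI1 and BIN2 lay close to the median gene, at 0.09 each relative to it.

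Among the 33 other BR signalling genes that passed the filter in this comparison, 6 were at least 1.5-fold higher, a smaller share than the 25.5% of all genes. None was at least 1.5-fold lower, where 15.1% of all genes were. Their median log2 ratio was 0.37, against 0.14 over all genes. The GSK3 kinase gene ATSK13 had 23.9 FPKM in bzr1-1D, against 12.3 FPKM in Col-0, a log2 ratio of 0.95. BSK5 had 30.5 FPKM in bzr1-1D, against 16.6 FPKM in Col-0, a log2 ratio of 0.88. PUB12, an E3 ubiquitin ligase gene, and ATSK42, another GSK3 kinase gene, had log2 ratios of 0.83 and 0.75. BSK7 and the co-receptor gene SERK4 were just past the fold at 0.66 and 0.60, and under it relative to the median gene, at 0.51 and 0.45. On that scale 4 of the 6 genes stayed past it.

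Under DPI, the same comparison again left most members below the fold. BAK1 was at least 1.5-fold higher, where 25.5% of all 17694 genes were, and BRL1 was at least 1.5-fold lower, where 8.70% were. BAK1 had 64.1 FPKM in bzr1-1D with DPI, against 42.3 FPKM in Col-0 DPI, a log2 ratio of 0.60 that is just past the fold and falls to 0.41 relative to the median gene. BRL1 had 1.36 FPKM in bzr1-1D with DPI, against 2.28 FPKM in Col-0 DPI, a log2 ratio of -0.71 that became -0.48 with a pseudocount of 1 FPKM. BRL3, past the fold in mock, had 3.95 FPKM in bzr1-1D with DPI, against 4.13 FPKM in Col-0 DPI, a log2 ratio of -0.06. The median over the 7 members was 0.28, against 0.19 over all genes.

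Of the 32 other genes that passed the filter under DPI, 4 were at least 1.5-fold higher in bzr1-1D, a smaller share than the 25.5% of all genes. None was at least 1.5-fold lower, where 8.70% of all genes were. Of the 4, ATSK13 had 14.9 FPKM in bzr1-1D with DPI, against 8.98 FPKM in Col-0 DPI, a log2 ratio of 0.73. The phosphatase genes BSL2 and BSL1 had log2 ratios of 0.65 and 0.62, and SERK4 had 0.62. Relative to the median gene none of these was past the fold, and BSK2 was past it on the lower side at -0.63. BIR3, which binds BAK1 and restrains the receptor complex, was not past the fold in either medium, with log2 ratios of 0.37 in mock and 0.54 under DPI.

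**Figure D2:**
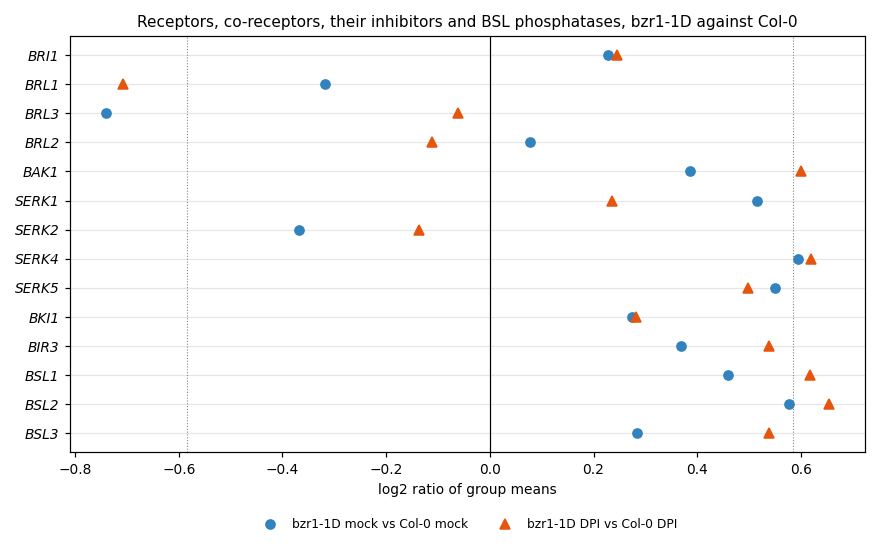
log2 ratio of the group means (horizontal axis) of bzr1-1D against Col-0 in mock (circles) and under DPI (triangles) for receptors, co-receptors, their inhibitors and BSL phosphatases, with dotted lines at 1.5-fold. BRI1 and BKI1 lie at 0.23 to 0.28 in both media, BAK1 lies at 0.60 under DPI and 0.39 in mock, and BRL1 and BRL3 are the members below 0.

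Most members had a lower mean under DPI than in mock, as did most genes. In bzr1-1D, 2 of the 7 members were at least 1.5-fold lower, where 29.1% of all 18286 genes were, and none was at least 1.5-fold higher, where 14.7% were. These were BSK1, with 17.4 FPKM under DPI and 38.0 FPKM in mock (log2 ratio -1.12), and BRL1, with 1.36 FPKM under DPI and 2.81 FPKM in mock (log2 ratio -0.99). Relative to the median gene they stood at -0.89 and -0.76, still past the fold. On that scale BRL3 was past it as well, at 0.62 on the higher side. The median over the members was -0.19, against -0.23 over all genes.

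In Col-0, 2 of the 7 members were at least 1.5-fold lower, where 24.1% of all 17684 genes were, and none was at least 1.5-fold higher, where 3.86% were. BSK1 had 13.4 FPKM under DPI and 26.5 FPKM in mock, a log2 ratio of -0.98. Without centring, this ratio was larger in size than that of 90.9% of all genes. It was -0.70 relative to the median gene. BRL1 had a log2 ratio of -0.60. All 7 members had log2 ratios below 0, as did 74.3% of all genes, and the median over the members was -0.29, against -0.28 over all genes. BIN2 had 181.2 FPKM under DPI and 233.9 FPKM in mock, a log2 ratio of -0.37 that lay -0.09 from the median gene.

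The DPI ratios of the 2 genotypes share no sample. They were near each other for BRI1 (-0.08 in bzr1-1D and -0.10 in Col-0), BKI1 (-0.19 and -0.20) and BIN2 (-0.29 and -0.37). For BSK1 they were -1.12 in bzr1-1D and -0.98 in Col-0, and for BAK1 0.09 and -0.13. Whether DPI acted differently on any of these genes in the 2 genotypes was not tested.

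Of the other BR signalling genes, 13 of 33 were at least 1.5-fold lower under DPI in bzr1-1D, where 29.1% of all genes were. In Col-0, 8 of 32 were, near the share of 24.1% of all genes. None was at least 1.5-fold higher, where 14.7% of all genes were in bzr1-1D and 3.86% in Col-0. Relative to the median gene, 10 were past the fold in bzr1-1D and 3 in Col-0, all lower. The median log2 ratios were -0.51 in bzr1-1D and -0.36 in Col-0, against -0.23 and -0.28 over all genes. The largest was ATSK31, a GSK3 gene, with 2.53 FPKM under DPI and 10.5 FPKM in mock in bzr1-1D (log2 ratio -2.01), and 3.23 FPKM under DPI and 7.30 FPKM in mock in Col-0 (log2 ratio -1.15). GRF6, a 14-3-3 protein gene of the class that holds phosphorylated BZR1 in the cytosol, had 252.7 FPKM under DPI and 604.2 FPKM in mock in bzr1-1D, a log2 ratio of -1.26, and -0.63 in Col-0. BRL2, the remaining gene of the receptor family, had log2 ratios of -1.10 in bzr1-1D and -0.91 in Col-0. BSK8 had -0.94 and -0.91, and ATSK11 -0.92 and -0.78, in bzr1-1D and Col-0. ATSK42 had -0.89 in bzr1-1D and -0.44 in Col-0, where it was not past the fold. PUB13, an E3 ligase gene whose product ubiquitinates BRI1, had -0.89 in bzr1-1D and -0.76 in Col-0, and CDL1, a cytoplasmic kinase gene, had -0.80 and -0.73.

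By family, the BSK genes held 154.0, 103.6 and 168.2 FPKM in sum in bzr1-1D with DPI plus H2O2, DPI and mock, and 88.8 and 118.1 FPKM in Col-0 DPI and mock, over 10 genes with values. BSK1 was the highest of them in the groups without DPI and in the group with H2O2, and BSK3 in the groups with DPI alone. All 8 BSK genes that passed the filter in bzr1-1D had a DPI ratio below 0, as did 63.8% of all genes, and 4 of them were at least 1.5-fold lower, where 29.1% of all genes were. In Col-0, 6 of 7 were below 0 and 2 were past the fold, where 24.1% of all genes were, and BSK5 was above 0 at 0.12. The 10 GSK3 genes summed to 564.2, 478.3 and 644.1 FPKM in bzr1-1D with DPI plus H2O2, DPI and mock, and to 427.7 and 552.0 FPKM in Col-0 DPI and mock. BIN2 made up 41.0% to 47.2% of this sum. All 10 had a DPI ratio below 0 in both genotypes, as did 63.8% of all genes in bzr1-1D and 74.3% in Col-0. In bzr1-1D 6 were past the fold, where 29.1% of all genes were. In Col-0 3 were, near the share of 24.1% of all genes. Relative to the median gene, BIL2 (-0.46) and ATSK13 (-0.44) were no longer past it in bzr1-1D, and in Col-0 only ATSK31 (-0.87) was. BIN2 was past the fold in neither genotype, and BIL1, a close relative of BIN2, had log2 ratios of -0.03 and -0.08. The 5 SERK genes had none past the fold with DPI in either genotype. Within these families sequences are alike, and how reads shared between relatives were divided is not given in the sources used here.

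**Figure D3:**
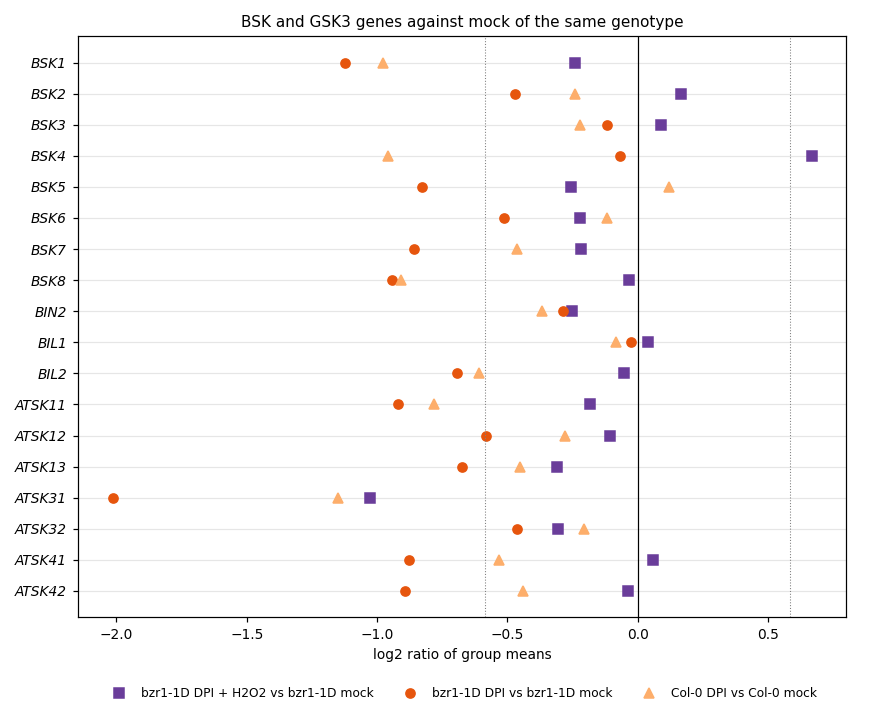
log2 ratio of the group means (horizontal axis) against mock of the same genotype for BSK and GSK3 genes with an average of at least 1 FPKM over the 5 groups, for bzr1-1D with DPI plus H2O2 (squares), bzr1-1D with DPI (circles) and Col-0 with DPI (triangles), with dotted lines at 1.5-fold. BSK1 lies at -0.24 with DPI plus H2O2 and at -1.12 with DPI in bzr1-1D, whereas the BIN2 points lie together between -0.37 and -0.25. BSK4 did not pass the filter in the Col-0 comparison.

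When H2O2 was added to DPI in bzr1-1D, 1 of the 7 members was at least 1.5-fold higher, where 26.4% of all 18232 genes were, and none was at least 1.5-fold lower, where 4.03% were. BSK1 had 32.2 FPKM with DPI plus H2O2 and 17.4 FPKM with DPI, a log2 ratio of 0.88. Without centring, this ratio was larger in size than that of 88.0% of all genes. It was 0.60 relative to the median gene. BIN2 had 231.2 FPKM with DPI plus H2O2 and 225.8 FPKM with DPI, a log2 ratio of 0.03. BRI1, BAK1 and BRL3 had log2 ratios of -0.07, -0.04 and -0.11, and BKI1 had 0.15. Relative to the median gene BIN2 stood at -0.25, BRI1 at -0.36, BAK1 at -0.32, BRL3 at -0.40 and BKI1 at -0.13, none past the fold. BRL1 had 1.02 FPKM with DPI plus H2O2 and 1.36 FPKM with DPI, a log2 ratio of -0.38, or -0.66 and past the fold relative to the median gene. Both means were near the filter of 1 FPKM, and with a pseudocount of 1 FPKM the log2 ratio was -0.22. The median over the members was -0.04, against 0.28 over all genes, and 72.4% of all genes had a log2 ratio above 0 compared with 3 of the 7 members.

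Among the other BR signalling genes 9 of 33 were at least 1.5-fold higher with H2O2, near the share of 26.4% of all genes. None was at least 1.5-fold lower, where 4.03% of all genes were. Their median log2 ratio was 0.36, against 0.28 over all genes. ATSK31 had 5.12 FPKM with DPI plus H2O2 and 2.53 FPKM with DPI, a log2 ratio of 0.99. ATSK41 had 19.6 FPKM with DPI plus H2O2 and 10.2 FPKM with DPI, a log2 ratio of 0.94. BSK8 had 22.5 FPKM with DPI plus H2O2 and 12.0 FPKM with DPI, a log2 ratio of 0.91. ATSK42, ATSK11 and BSK4 had log2 ratios of 0.85, 0.74 and 0.73. All 8 BSK genes and all 10 GSK3 genes that passed the filter had a ratio above 0, as did 72.4% of all genes. In each family 5 were past the fold, where 26.4% of all genes were. Relative to the median gene, only BSK1 and BSK8 (0.60 and 0.62) and ATSK31 and ATSK41 (0.70 and 0.65) stayed past it. BIR3 went the other way, with 54.7 FPKM with DPI plus H2O2 against 71.3 FPKM with DPI, a log2 ratio of -0.38, or -0.66 relative to the median gene.

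Set against mock, bzr1-1D with DPI plus H2O2 had 1 member at least 1.5-fold lower, where 10.3% of all 18523 genes were, and none at least 1.5-fold higher, where 16.0% were. BRL1 had 1.02 FPKM with DPI plus H2O2 and 2.81 FPKM in mock, a log2 ratio of -1.37, larger in size than that of 94.8% of all genes. BSK1 stood at -0.24, BIN2 at -0.25, BRI1 at -0.15, BKI1 at -0.04, BAK1 at 0.05 and BRL3 at 0.28. This comparison shares its samples with the comparisons of DPI with mock and of DPI plus H2O2 with DPI, so the 3 are not independent. Of the other genes, 4 of 33 were at least 1.5-fold lower and 1 higher. ATSK31 (5.12 FPKM with DPI plus H2O2 and 10.5 FPKM in mock), BRL2 (9.27 and 18.6 FPKM), GRF6 (350.8 and 604.2 FPKM) and PUB13 (21.8 and 35.3 FPKM) were lower, and BSK4 (2.05 and 1.25 FPKM) was higher.

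**Figure D4:**
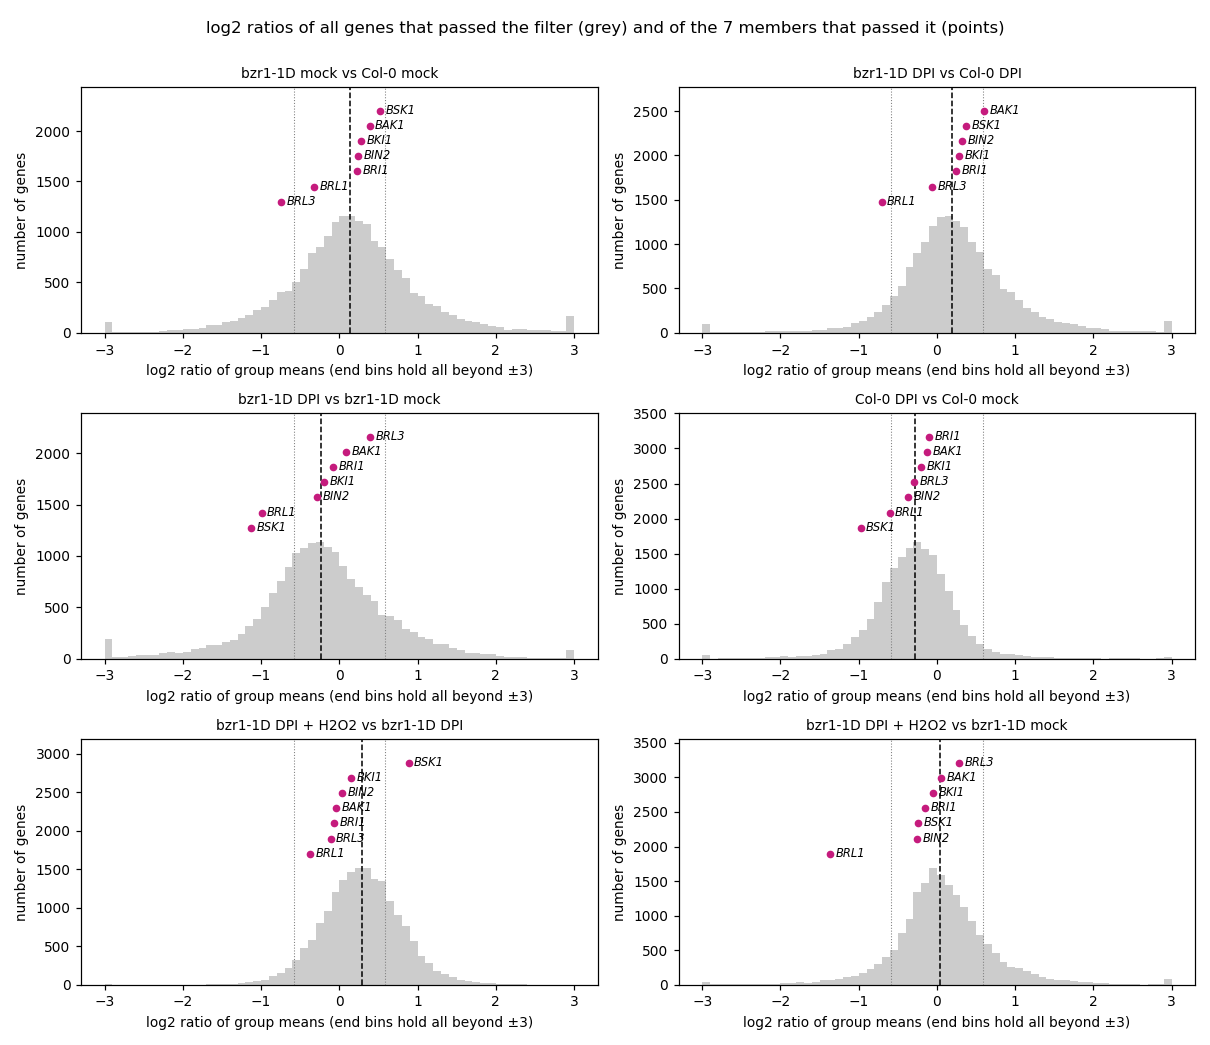
Number of genes (vertical axis) by log2 ratio of the group means (horizontal axis, end bins holding all beyond the limits) for all genes that passed the filter in each of the 6 comparisons, with the 7 members that passed it as points stacked only for legibility, the median gene as a dashed line and 1.5-fold as dotted lines. BSK1 lies at -1.12 and -0.98 in the comparisons of DPI with mock and at 0.88 when H2O2 was added, and BRL1 at -1.37 for DPI plus H2O2 against mock.

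The genes most like each member were sought among 12767 genes with an average of at least 5 FPKM, by the root-mean-square difference of the log2 means over the 5 groups after each gene was centred on its own average. With 5 group means per gene this is a description only. The nearest to BSK1 were SNX1 (AT5G06140), at a difference of 0.033, and AT2G42330, at 0.036. SNX1 had 31.3, 16.4 and 34.6 FPKM in bzr1-1D with DPI plus H2O2, DPI and mock, and 12.4 and 25.3 FPKM in Col-0 DPI and mock, close to the values of BSK1 in every group. The nearest to BRI1 were AT1G77610 (0.015) and AT5G60570 (0.016), to BAK1 AT4G11547 (0.031) and AT2G20780 (0.037), to BKI1 AT2G37160 (0.012) and AT2G19180 (0.014), and to BIN2 AT1G54290 (0.028) and ZML2 (AT1G51600, 0.030). BRL3 was nearest to HSP93-III (AT3G48870, 0.030) and AT4G10320 (0.034). BRL1 had more distant neighbours, AT3G21870 (0.064) and AT2G34590 (0.137). The difference is not scaled for how widely a gene varied, and the highest mean of BRL1 was 3.44 times its lowest. BRL1 and BRL3 themselves averaged 2.20 and 3.96 FPKM, under the 5 FPKM set for the genes searched. BSU1, whose profile rests on means near the lowest value, was nearest to AT2G38480 (0.106) and AT2G45180 (0.136).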

How the data were processed

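RNA-Seq libraries of 14 samples in 5 groups were analysed from the authors' tables of 6 pairwise comparisons. The authors mapped BGISEQ-500 reads to the Arabidopsis genome (TAIR10, per the submitters' processing notes) with HISAT and Bowtie2, averaged the values of each group and compared groups with NOISeq. Tool versions are not given in the sources used here. The deposited means are taken as FPKM from their size and a length column, since the unit is not named. Column headers write ERD where table titles and labels write bzr1-1D. The means of a group were the same in each table to within 3.33e-07 FPKM. Columns of log2 ratios, directions and NOISeq probabilities hold the authors' own comparisons and were not used, nor were filtered lists and a table that ends within a row.

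No value per sample was analysed, so no test, error or depth per sample is given, and the precision of each value is unknown. Log2 ratios were computed with Python 3.11.15 and pandas 2.3.3 from the means plus 0.1 FPKM, and genes with an average of the 2 means of at least 1 FPKM were called at 1.5-fold, the size criterion of the study. Alternatives were a 2-fold threshold, a pseudocount of 1 FPKM, no filter, and centring on the median gene. The members and the list of 39 other signalling genes, 36 of them with values, were chosen with earlier results of these data known. Named genes were all members, up to 6 other listed genes past the fold per comparison, the 2 genes nearest in profile to each member, and BIR3, BIL1, BSK2, BSK3 and family sums, chosen after their values were seen. All 24132 nuclear gene positions compared lay within the genes of the TAIR10.1 annotation, from which the upstream sequences were read. The upstream sequence of 1 member is not reported here.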

Additional observations from a re-analysis of the deposited data

How the results depend on the processing

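Of the member ratios recomputed under the 4 alternatives, 176 kept their side of the fold, 5 passed it newly, 11 no longer passed it and 0 called ones changed sign. With no filter BSU1 passed the fold for bzr1-1D against Col-0 in mock (log2 ratio 1.66), for DPI against mock in bzr1-1D (-1.41) and for DPI plus H2O2 against mock (-1.29), which left 2 members past the fold in the first and the last of these comparisons. A 2-fold threshold left 0 members for bzr1-1D against Col-0 in mock and under DPI, for DPI in Col-0 and for H2O2 added to DPI, and 1 member (BSK1) for DPI in bzr1-1D. It left 0 of the other signalling genes for bzr1-1D against Col-0 in mock, under DPI and for H2O2 added to DPI, 3 for DPI in bzr1-1D, 1 for DPI in Col-0 and 1 for DPI plus H2O2 against mock. With a pseudocount of 1 FPKM, 1 member remained past the fold for bzr1-1D against Col-0 under DPI (BAK1) and 1 for DPI in Col-0 (BSK1). Centred on the median gene, 1 member was past it for bzr1-1D against Col-0 under DPI (BRL1), 1 for DPI in Col-0 (BSK1) and 2 for H2O2 added to DPI (BSK1 and BRL1), and 1, 3 and 4 of the other genes were in these comparisons. The other 27 count settings stayed within 1.5 times. The causes were not tested. No paired analysis was possible because the tables analysed hold 1 mean per group, so leaving out a replicate was not possible either.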
